A study of Homo sapiens with 120 samples.

Results

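The clustered histone genes are the genes that encode the canonical H1, H2A, H2B, H3 and H4 proteins and lie mostly in dense groups on a few chromosomes. A gene was a member if its annotated symbol begins with H2AC, H2BC, H3C or H4C and a digit, or with H1- and a digit, pseudogenes left out. This chose 72 of the 20046 genes measured: 9 of H1, 17 of H2A, 18 of H2B, 13 of H3 and 15 of H4. On the RefSeq annotation 55 of them lie on chromosome 6, 13 on chromosome 1, 2 on chromosome 3 and 2 on chromosome 12. The rule itself uses no measured value, but it was set with earlier results of these data known. The annotation used here lists 1 probe for 66 members and several for the other 6, and the probe with the highest mean stands for its gene. A probe annotated to both H3C6 and H3C11 was not used.

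HepG2, an established line from a human hepatocellular carcinoma, was exposed in flasks for 72 h to 1 of 8 coded nanomaterials, and RNA was hybridised to Illumina HT-12 v4 bead arrays. The exposed groups are material A (TiO2 from Degussa), B (CeO2 from Nano Amor), C and D (CeO2 from Alfa Aesar), H (TiO2 from Mknano), I (TiO2 from Acros), L (CeO2 from Alfa Aesar) and M (CeO2 from Nano Amor), each at 0.3, 3 and 30 µg/mL. The series text counts 6 formulations and the labels hold 8 codes. The codes are kept apart here, and whether each is a distinct material is not known. A group holds 4 arrays at 0.3 µg/mL and 5 at the higher doses, except M at 3 µg/mL with 4, and the control group holds 8, which makes 119 arrays in 25 groups. All groups are cultures of 1 cancer cell line, and the 24 exposed groups were set against the same 8 control arrays, so their comparisons are not independent of each other. Of 9 liver marker genes, all were above the array median on every array (log2 9.56 to 14.1). Of 6 markers of fibroblasts, leukocytes and endothelium, COL1A1 reached 8.61 and the other 5 stayed between 6.37 and 6.75.

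DNA is wound around an octamer of H2A, H2B, H3 and H4, and H1 binds the linker DNA between octamers. Most clustered histone genes are transcribed in S phase and make messages that end in a stem-loop in place of a poly(A) tail. Some of them, H2BC21 among them, also make polyadenylated transcripts, and H1-10 is an H1 gene outside the clusters that is expressed independently of replication. How the RNA was primed for labelling is not stated by the sources used here. The values are therefore levels of whatever form of each message was labelled.

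Many clustered histone genes sit head to head in H2A and H2B pairs that share the stretch between their starts. The 250 bases before the start of 6 genes are shown because the results turn on these genes. They come from RefSeq (GRCh38.p14), read in the direction of the gene's own strand. They are H2AC6 (chr6:26123922-26124171, plus strand), H2BC8 (chr6:26216689-26216938, minus strand), H2BC21 (chr1:149886683-149886932, minus strand), H3C10 (chr6:27809801-27810050, plus strand), H1-2 (chr6:26056471-26056720, minus strand) and H1-10 (chr3:129316287-129316536, minus strand). Capitals mark matches to 4 motifs on either strand. The CCAAT box is spelled by its name. The form of the TATA box that was searched is TATAAA. The octamer found before many H2B genes is ATTTGCAT. The H1 box, found before H1 genes, was searched as AAACACA. These motifs do not overlap in the 6 windows.
H2AC6: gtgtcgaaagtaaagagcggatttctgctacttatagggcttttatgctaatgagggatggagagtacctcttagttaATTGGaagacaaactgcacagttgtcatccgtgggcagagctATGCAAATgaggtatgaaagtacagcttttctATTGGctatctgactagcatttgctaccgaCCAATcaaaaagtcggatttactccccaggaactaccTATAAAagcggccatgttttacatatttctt
H2BC8: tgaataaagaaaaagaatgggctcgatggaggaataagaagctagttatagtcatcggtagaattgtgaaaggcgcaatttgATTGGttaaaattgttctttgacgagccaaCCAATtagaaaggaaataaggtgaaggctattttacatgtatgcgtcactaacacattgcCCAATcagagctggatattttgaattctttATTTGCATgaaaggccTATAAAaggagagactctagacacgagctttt
H2BC21: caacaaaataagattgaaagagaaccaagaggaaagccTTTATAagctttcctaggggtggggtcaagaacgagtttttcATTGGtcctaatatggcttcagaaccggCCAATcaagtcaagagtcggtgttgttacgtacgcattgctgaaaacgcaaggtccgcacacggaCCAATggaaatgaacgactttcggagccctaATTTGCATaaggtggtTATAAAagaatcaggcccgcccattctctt
H3C10: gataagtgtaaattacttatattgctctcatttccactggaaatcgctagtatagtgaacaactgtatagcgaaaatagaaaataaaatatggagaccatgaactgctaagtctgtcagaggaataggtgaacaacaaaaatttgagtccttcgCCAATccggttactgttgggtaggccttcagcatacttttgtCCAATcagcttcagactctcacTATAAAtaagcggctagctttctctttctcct
H1-2: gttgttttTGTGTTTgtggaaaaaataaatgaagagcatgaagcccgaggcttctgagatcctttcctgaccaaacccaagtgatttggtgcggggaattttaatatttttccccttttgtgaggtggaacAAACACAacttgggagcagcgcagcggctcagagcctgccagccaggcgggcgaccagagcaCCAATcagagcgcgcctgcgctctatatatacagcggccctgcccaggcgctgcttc
H1-10: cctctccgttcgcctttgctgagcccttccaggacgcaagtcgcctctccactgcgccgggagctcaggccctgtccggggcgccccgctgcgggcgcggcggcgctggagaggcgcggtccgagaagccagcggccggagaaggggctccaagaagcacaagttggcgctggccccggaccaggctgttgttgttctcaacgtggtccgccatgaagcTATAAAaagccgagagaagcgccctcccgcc
The H2AC6 window spans the whole gap to H2BC4, the H2BC8 window that to H2AC8 and the H2BC21 window that to H2AC20. Among the 67 members with an entry, CCAAT was in 83.6% (33% of 27305 promoters), TATAAA in 64.2% (11.1%), the octamer in 38.8% (1.66%) and the H1 box in 10.4% (4.95%). By type, CCAAT was in all 45 H2A, H2B and H3 windows and in 3 of 13 H4 windows. The octamer was in 11 of 16 H2A and 14 of 18 H2B windows, 1 of 11 H3 windows, and 0 H1 or H4 windows. The H1 box was in 7 of 9 H1 windows, H1-2 included, and in 0 of the rest. The TATAAA nearest each gene begins 30 to 32 bases before the start in H2AC6, H2BC8, H2BC21, H3C10 and H1-10. A match of letters is a description and not a bound site.

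On the 9 arrays that stood apart on the first principal component of all genes, members included, some members differed in level and others did not. These arrays are replicate 3 of A, replicates 1 and 2 of H, replicate 1 of L and replicates 3 and 4 of M at 30 µg/mL, replicate 3 of I and replicate 3 of L at 0.3 µg/mL, and replicate 4 of I at 3 µg/mL. They are neighbours in the order of deposit, and no control is among them. H1-10 had a lowest, median and highest log2 level of 9.38, 9.97 and 10.42 on these 9 arrays, against 8.14, 8.87 and 9.65 on the other 110. Of the 9 arrays, 7 were above every other array. H1-2 had 7.68, 8.43 and 9.03 on the 9 arrays, against 8.34, 9.38 and 10.05 on the others. H2AC6 had 6.95, 7.15 and 7.84, against 6.92, 8.27 and 9.65. Other members differed little in median, such as H2BC21 (8.77 against 8.84) and H2AC7 (6.57 against 6.57). The share of all genes that differ on the 9 arrays was not counted. The ranges of H1-10, H1-2 and H2AC6 overlapped between the 9 arrays and the others. Changes that rest on such an array are also given without all 9. That setting was chosen after the data were seen.

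In such cultures, fewer cells that use a gene and less of its RNA per cell cannot be told apart, and since every array was scaled alike a change is relative to the rest of that array. On the log2 scale used throughout, where 1 unit is a doubling, 33 members were above the array median of 6.62 on average and 39 were at or below it. Over the 24 comparisons with control, 21 members passed an adjusted p of 0.05 at least once and 51 never did. Of the 21, 17 were above the median and 4 were not. The largest change at 30 µg/mL of any member at or below the median was 0.11 in size. There were 62 passes among 1728 member comparisons. The share of all genes that passed at least once was not counted. The shares of passes over all genes are given by dose below.

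At 30 µg/mL the passes were 8 rises (1.39% of 576 member comparisons, against 3.88% over all genes) and 21 falls (3.65%, against 2% over all genes). At 3 µg/mL there were 4 rises and 14 falls (0.694% and 2.43%, against 1.52% and 0.797% over all genes). At 0.3 µg/mL there were 2 rises and 13 falls (0.347% and 2.26%, against 1.58% and 0.667%). By material, the share of all genes past the threshold at 0.3 µg/mL was 0.175% in A, 0% in B, C and M, 0.02% in D, 0.015% in H, 5.57% in I and 12.2% in L, and at 3 µg/mL 4.39% in A, 0.015% in B, 0.00499% in C and D, 1.37% in H, 7.72% in I, 4.06% in L and 0.958% in M. Falls outnumbered rises among the members at each dose, while rises outnumbered falls over all genes. At 0.3 µg/mL 12 of the 13 falls were in L alone. Without the 9 arrays the members had 6 rises and 12 falls at 0.3 µg/mL, 12 and 22 at 3 µg/mL, and 10 and 22 at 30 µg/mL. Over all genes the shares of rises and falls in that fit were 1.99% and 0.963% at 0.3 µg/mL, 2.96% and 1.98% at 3 µg/mL, and 3.51% and 2.08% at 30 µg/mL. Of the 29 passes at 30 µg/mL, 19 remained, 10 were lost and 0 turned direction.

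Among the 30 µg/mL groups, material M had the most members past the threshold: 4 rose (H1-4, H3C1, H4C1 and H4C3) and 9 fell (H1-2, H2AC6, H2AC19, H2BC4, H2BC5, H2BC8, H2BC12, H2BC15 and H2BC21), beside 10.5% of all genes that rose, 6.87% that fell and 17.4% in either direction. Of these 13, 8 remained without the 9 arrays, and the rises of H3C1 (0.03, adjusted p = 0.728) and H4C1 (0.07, adjusted p = 0.0882) did not. H1-4, H3C1 and H4C1 averaged 6.47, 6.56 and 6.44 in the controls, below the array median of 6.62. A moved 4 members (8.51% of all genes), H 3 (9.46%), I 3 (3.93%) and L 4 (6.9%). B moved 2 (0.743%). C (0.0649% of all genes) and D (0.015%) had 0 members past the threshold by limma, and 0 without the 9 arrays, with 5 members in C and 2 in D below an unadjusted p of 0.05. The share of members that passed was 18.1% in M, 4.17% in I and 2.78% in B, which is above the share of all genes in B and close to it in M and I. It was below that share in A (5.56%), H (4.17%) and L (5.56%). The median change of the 72 members lay between -0.0097 in M and 0.0107 in B, and that of all genes between -0.0047 and 0.0086.

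**Figure D1:**
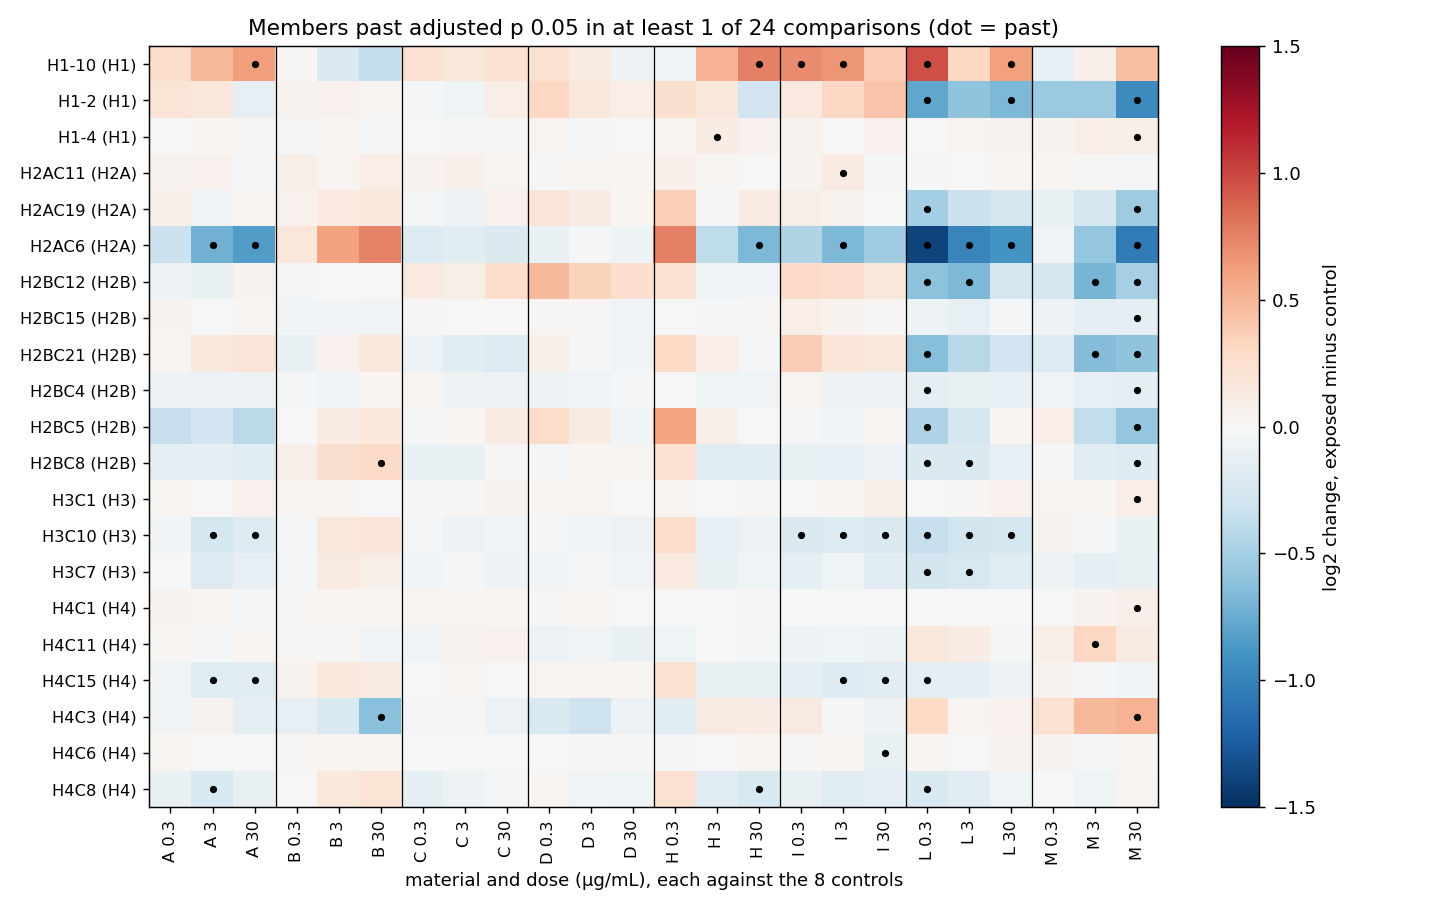
Log2 change (colour, exposed minus control) of the 21 members that passed in at least 1 of 24 comparisons, by material and dose in µg/mL along the horizontal axis and gene (histone type) down the vertical axis, with a dot where adjusted p was below 0.05. H2AC6 and H3C10 carry 8 dots each, all of them falls, H1-10 carries 6 rises, and the columns of C and D carry none.

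Among the linker histones, H1-2 fell and H1-10 rose, while the remaining 7 H1 genes changed by at most 0.10 in size at 30 µg/mL. H1-4 was the only one of these 7 to pass. It rose by 0.09 in M at 30 µg/mL (adjusted p = 0.0372, and 0.0127 without the 9 arrays) and by 0.11 in H at 3 µg/mL (adjusted p = 0.0497). Its control mean was 6.47, below the array median of 6.62. H1-2, a widely expressed H1 subtype, had 8.34, 8.48, 7.68, 8.64 and 8.70 in M at 30 µg/mL, against a lowest, median and highest of 8.60, 9.42 and 9.66 in the 8 controls. All 5 M arrays were below the control mean and 2 of them were above the lowest control. H1-2 fell by 0.95 ± 0.19 (SE) in M, a 1.93-fold lower intensity (adjusted p = 0.000125), and by 0.81 without the 9 arrays (adjusted p = 0.000520). In L at 30 µg/mL it had 7.79, 8.83, 9.13, 8.82 and 8.68, and it fell by 0.67 ± 0.19 (adjusted p = 0.0177). That call rested on 1 array: without replicate 1 of L the fall was 0.46 (adjusted p = 0.272), and without all 9 it was 0.46 (adjusted p = 0.0559). In L at 0.3 µg/mL H1-2 fell by 0.78 ± 0.21 (adjusted p = 0.00483), and by 0.54 without the 9 arrays (adjusted p = 0.0177). In I at 30 µg/mL H1-2 had 9.82, 9.59, 10.01, 9.43 and 9.86, a change of 0.42 that passed only without the 9 arrays (adjusted p = 0.0429), with I itself unaltered.

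H1-10 rose in 6 of the 24 comparisons. At 30 µg/mL it had 9.32, 9.06, 10.10, 9.05 and 8.77 in A, 9.89, 9.95, 8.87, 9.02 and 9.18 in H and 10.42, 9.08, 9.01, 9.19 and 8.55 in L, against 8.35, 8.55 and 9.04 (lowest, median and highest) in the controls. The top value in each of these exposed groups, and the top pair in H, came from arrays that stood apart, and every group overlapped the controls. It rose by 0.63 ± 0.19 in A (adjusted p = 0.0179), by 0.75 ± 0.19 in H (adjusted p = 0.00426) and by 0.62 ± 0.19 in L (adjusted p = 0.0256). Without the 9 arrays the changes were 0.42 in A (adjusted p = 0.0358), 0.39 in H (adjusted p = 0.139) and 0.33 in L (adjusted p = 0.161). Leaving out single arrays also ended the call: replicate 3 in A (0.42, adjusted p = 0.265), replicate 1 (0.62, adjusted p = 0.0538) or 2 (0.61, adjusted p = 0.0701) in H, and replicate 1 in L (0.33, adjusted p = 0.482), as did control replicate 3 (0.58, adjusted p = 0.0552) or 4 (0.58, adjusted p = 0.0524) for L. In L at 0.3 µg/mL H1-10 had 9.37, 9.56, 10.27 and 9.19, all above every control, and it rose by 0.96 ± 0.20 (adjusted p = 0.000214). That rise was 0.74 without the 9 arrays (adjusted p = 0.000151). Without them H1-10 rose in 7 comparisons.

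The H2A genes were led by H2AC6, a chromosome 6 gene for a canonical H2A, which fell in 8 of the 24 comparisons. It fell in 6 without the 9 arrays and rose in 1, B at 30 µg/mL, the falls in H at 30 µg/mL and in I at 3 µg/mL (0.60, adjusted p = 0.0553) being lost. At 30 µg/mL H2AC6 had 7.69, 7.67, 6.95, 7.01 and 7.88 in M, 7.13, 7.67, 7.70, 7.36 and 8.09 in L and 7.33, 8.22, 7.01, 7.65 and 8.00 in A, against 7.72, 8.48 and 9.15 (lowest, median and highest) in the controls. Every one of these 15 exposed arrays was below the control mean, although each group overlapped the lowest control. H2AC6 fell by 1.04 ± 0.21 in M (2.06-fold lower, adjusted p = 8.484e-05), by 0.89 ± 0.21 in L (adjusted p = 0.00209) and by 0.84 ± 0.21 in A (adjusted p = 0.00304). Without the 9 arrays it fell by 0.74 in M (adjusted p = 0.0340), by 0.78 in L (adjusted p = 0.0126) and by 0.68 in A (adjusted p = 0.0252), and leaving out only replicate 3 of A gave 0.68 with an adjusted p of 0.0520. In H it had 7.68, 7.43, 8.65, 7.75 and 7.52 and fell by 0.68 ± 0.21 (adjusted p = 0.0225), a call that leaving out control replicate 7 (adjusted p = 0.0635) or replicate 1 (0.0799), 2 (0.140) or 5 (0.0572) of H ended. Without all 9 arrays the change in H was -0.51 (adjusted p = 0.236).

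In L at 0.3 µg/mL H2AC6 had 7.03, 7.08, 7.15 and 7.15, all below every control, and fell by 1.38 ± 0.22 (2.61-fold lower, adjusted p = 2.031e-06). The fall was 1.40 without the 9 arrays (adjusted p = 3.978e-06). In B at 30 µg/mL H2AC6 went the other way in value, with 8.89, 9.65, 9.31, 9.06 and 9.25, 3 of them above the highest control. The change of 0.75 ± 0.21 missed the threshold with all arrays (adjusted p = 0.0547) and passed without the 9 (adjusted p = 0.0172), none of which is in B. In C and D the changes were -0.22 and -0.08, and in I -0.53 (adjusted p = 0.139).

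H2AC19, on chromosome 1, fell in M at 30 µg/mL, where it had 8.14, 8.12, 7.84, 8.04 and 8.49, against 8.52, 8.65 and 9.02 in the controls. The groups did not overlap. It fell by 0.53 ± 0.11 (adjusted p = 0.000253), and by 0.40 without the 9 arrays (adjusted p = 0.0257). H2AC18, a near-identical neighbour of H2AC19, has 2 probes. Their changes had different signs in I and the same sign in M: in I at 30 µg/mL the brighter one changed by -0.57 (adjusted p = 0.200) and the other by 0.29 (adjusted p = 0.327), and in M they changed by -0.13 (adjusted p = 0.814) and -0.52 (adjusted p = 0.0106). Those 4 adjusted p-values come from the fit over all probes. In that fit without the 9 arrays the changes in M were -0.58 (adjusted p = 0.0354) and -0.69 (adjusted p = 0.00180), and in I the brighter probe passed (adjusted p = 0.00793) and the other did not (adjusted p = 0.167). Whether a probe also binds a near-identical copy was not checked, so H2AC18 and H2AC19, and likewise H4C14 and H4C15, are uncertain as separate genes. H2AC18 also passed as lower in L at 0.3 and 3 µg/mL and in I and M at 30 µg/mL without the 9 arrays, where it had stood higher on those arrays (9.24, 9.56 and 10.28, against 7.51, 8.73 and 9.58 on the others).

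**Figure D2:**
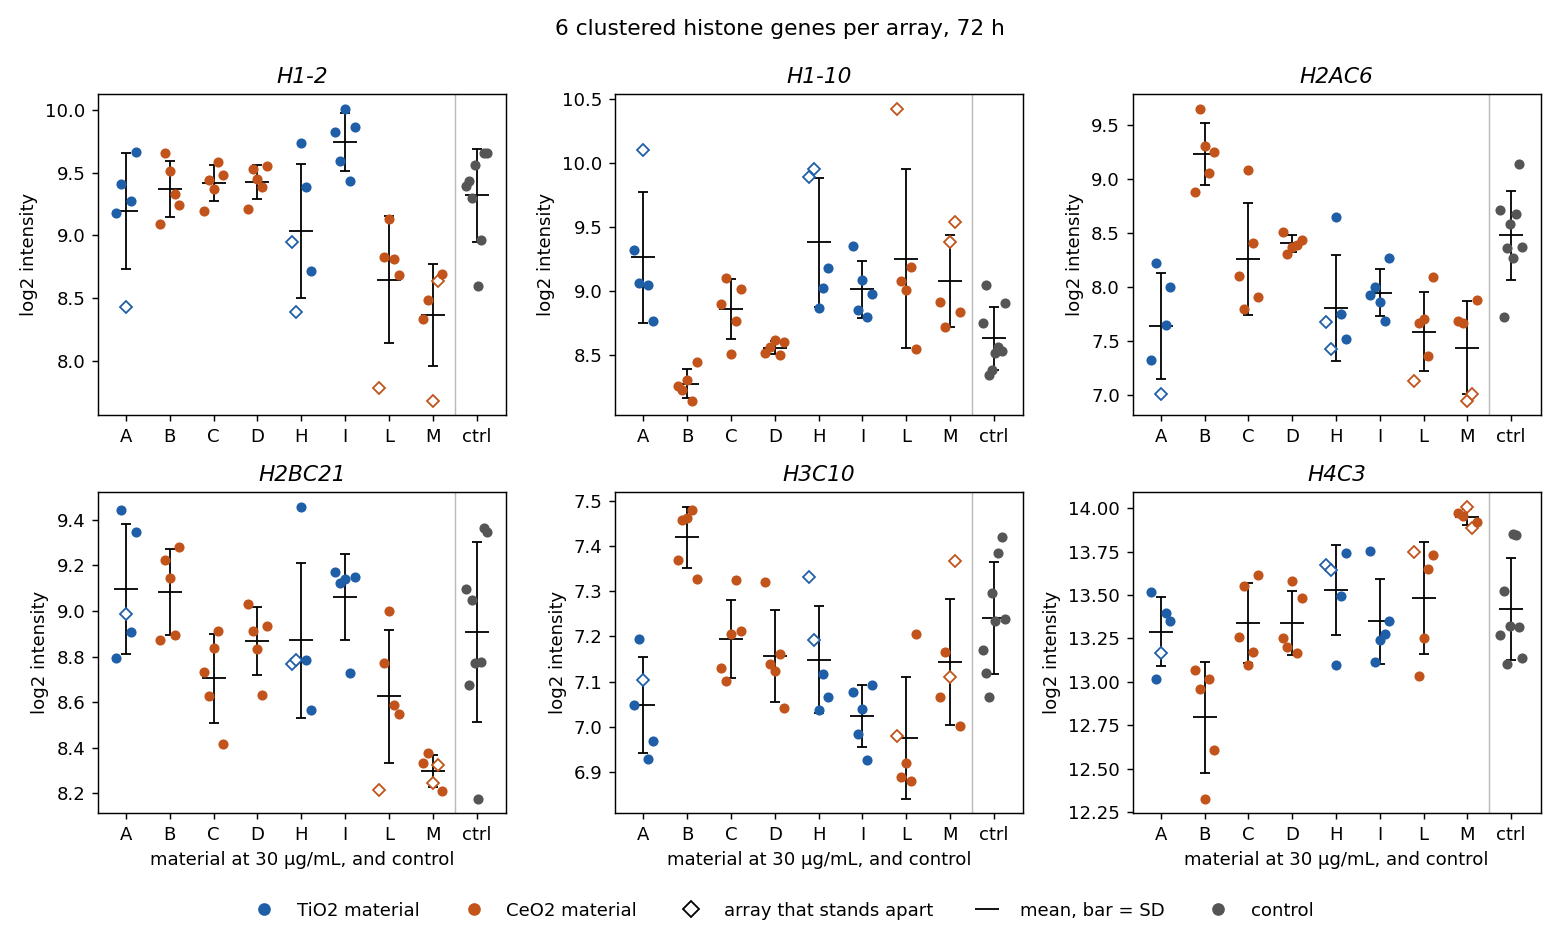
Log2 intensity of 6 members on every array at 30 µg/mL by material (A to M) and in the controls at the right of each panel, with mean and SD and with open diamonds for the arrays that stood apart. H2AC6 in M, L and A sits mostly below the controls, H4C3 in M (13.88 to 14.01) lies above and in B (12.33 to 13.07) below every control, and the highest H1-10 points are open diamonds.

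All 15 H2B falls over the 24 comparisons were in materials M and L, and the single H2B rise was in B. H2BC21, a chromosome 1 gene, had 8.33, 8.38, 8.25, 8.33 and 8.21 in M at 30 µg/mL, against 8.18, 8.91 and 9.36 in the controls. A single control, at 8.18, was below every M array and the other 7 were above all of them. It fell by 0.61 ± 0.14 (1.52-fold lower, adjusted p = 0.000753) and kept that call without the 9 arrays, with 0.60 (adjusted p = 0.0125). H2BC12 had 8.26, 8.26, 8.69, 9.07 and 8.29 in M, against 8.42, 9.02 and 9.42 in the controls, and it fell by 0.50 ± 0.15 (adjusted p = 0.0109). The 2 highest M arrays were those that stood apart, and without the 9 arrays the fall was 0.74 (adjusted p = 0.000141). A second probe of H2BC12 fell in M as well, by 0.33 (adjusted p = 0.00265), and in L, by 0.25 (adjusted p = 0.0449), and without the 9 arrays by 0.40 in M (adjusted p = 0.000112) and 0.28 in L (adjusted p = 0.00459). H2BC12 and H2BC21 also fell in M at 3 µg/mL, by 0.70 ± 0.16 (adjusted p = 0.00852) and 0.65 ± 0.15 (adjusted p = 0.00911), with no apart array in that group.

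H2BC5 had 7.86, 7.63, 7.77, 7.33 and 7.90 in M at 30 µg/mL, against 7.94, 8.18 and 8.92 in the controls, with no overlap. It fell by 0.58 ± 0.14 (adjusted p = 0.00188), but without the 9 arrays the fall was 0.49 (adjusted p = 0.0639), and its second probe changed by -0.10 (adjusted p = 0.764, or -0.34 with adjusted p = 0.136 without the 9). H2BC15 fell in M by 0.14 ± 0.05 (adjusted p = 0.0301, and 0.0434 without the 9 arrays). Leaving out control replicate 2 or 3 or replicate 2, 3 or 4 of M ended the H2BC15 call (adjusted p up to 0.0934). H2BC8 differed between the 2 materials labelled Nano Amor CeO2. It had 6.97, 7.32, 7.28, 7.10 and 7.10 in B and 6.80, 6.78, 6.56, 6.58 and 6.65 in M, against 6.76, 6.84 and 7.13 in the controls, and the B and M arrays did not overlap. H2BC8 rose by 0.29 ± 0.06 in B (adjusted p = 0.0115) and fell by 0.19 ± 0.06 in M (adjusted p = 0.0151). The fall in M was lost without the 9 arrays (0.12, adjusted p = 0.340), without replicate 3 (0.16, adjusted p = 0.105) or 4 (0.16, adjusted p = 0.0760) of M, and without control replicate 7 (0.15, adjusted p = 0.0626).

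Only 1 H3 gene passed in more than 2 comparisons. H3C10 fell in 8, in A at 3 and 30 µg/mL and in I and L at all 3 doses. It fell in 7 without the 9 arrays and rose in 1: the fall in I at 0.3 µg/mL was lost (0.18, adjusted p = 0.159), and the rise in H at 0.3 µg/mL (0.28, adjusted p = 0.0491) is in a group that holds none of the 9. At 30 µg/mL H3C10 had 6.98, 6.89, 6.92, 6.88 and 7.21 in L, 7.08, 6.98, 7.04, 6.93 and 7.09 in I and 7.05, 7.19, 7.10, 6.93 and 6.97 in A, against 7.07, 7.24 and 7.42 in the controls. All 15 exposed arrays were below the control mean, and each group overlapped the controls. It fell by 0.27 ± 0.06 in L (adjusted p = 0.00405), by 0.22 ± 0.06 in I (adjusted p = 0.0352) and by 0.19 ± 0.06 in A (adjusted p = 0.0459). The L call held whichever single array was left out, the I call ended on leaving out control replicate 4, 6 or 7 or replicate 1, 2, 3 or 4 of I (adjusted p up to 0.111), and the A call on leaving out any of 9 arrays (control replicates 4 to 8 and replicates 1, 3, 4 and 5 of A, adjusted p up to 0.151). Without the 9 apart arrays the falls were 0.27 in L (adjusted p = 0.00678), 0.22 in I (adjusted p = 0.0148) and 0.21 in A (adjusted p = 0.0362). In B at 30 µg/mL H3C10 had 7.37, 7.46, 7.46, 7.48 and 7.33, a change of 0.18 that did not pass (adjusted p = 0.0860 without the 9 arrays). H3C7 fell in L at 0.3 and 3 µg/mL, by 0.27 ± 0.07 (adjusted p = 0.00231, and a fall of 0.30 with adjusted p = 0.000453 without the 9 arrays) and 0.24 ± 0.06 (adjusted p = 0.0124). H3C7 fell, without the 9 arrays, in 6 comparisons in place of 2, with A at 3 µg/mL and I, L and M at 30 µg/mL added (falls of 0.17 to 0.21, adjusted p from 0.0190 to 0.0422).

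H4C3 was the H4 gene with the largest movement, and it went opposite ways in B and M. At 30 µg/mL it had 13.97, 13.96, 14.01, 13.88 and 13.92 in M and 13.07, 12.96, 12.33, 13.02 and 12.61 in B, against 13.10, 13.32 and 13.85 in the controls. Every M array was above and every B array below the whole control range. H4C3 rose by 0.53 ± 0.13 in M (1.44-fold higher, adjusted p = 0.00265) and fell by 0.63 ± 0.13 in B (1.54-fold lower, adjusted p = 0.0115). The M call held without any single array and without the 9 (0.53, adjusted p = 0.0266). The B call held without the 9 (adjusted p = 0.00383) but ended without replicate 3 (0.51, adjusted p = 0.0816) or 5 (0.58, adjusted p = 0.0625) of B. In M at 3 µg/mL H4C3 had 13.84, 13.86, 13.97 and 13.96, a change of 0.49 that passed only without the 9 arrays (adjusted p = 0.0422).

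H4C12, at 8.25 in the controls, changed by up to 0.55 in size at 30 µg/mL but did not pass against control with all arrays. It passed as a fall in I at 30 µg/mL in the fit without the 9 arrays. The other H4 genes that passed at 30 µg/mL with all arrays moved by less. H4C15 had 6.72, 6.75, 6.74, 6.71 and 6.75 in I at 30 µg/mL, against 6.72, 6.91 and 7.05 in the controls, and it fell by 0.15 ± 0.05 (adjusted p = 0.0438). In A it had 6.58, 6.71, 6.75, 6.74 and 6.86 and fell by 0.16 ± 0.05 (adjusted p = 0.0185). Both groups overlapped the low controls; leaving out any of 10 of 13 arrays ended the call in I (adjusted p up to 0.125), and control replicate 1 or replicate 1 of A did so in A (adjusted p up to 0.127). H4C8 had 6.65, 6.71, 6.95, 6.83 and 6.72 in H at 30 µg/mL, against 6.81, 7.01 and 7.12 in the controls, and fell by 0.23 ± 0.06 (adjusted p = 0.0105). That call was lost without the 9 arrays (0.17, adjusted p = 0.171) and without replicate 1 (adjusted p = 0.0742) or 2 (adjusted p = 0.0631) of H.

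**Figure D3:**
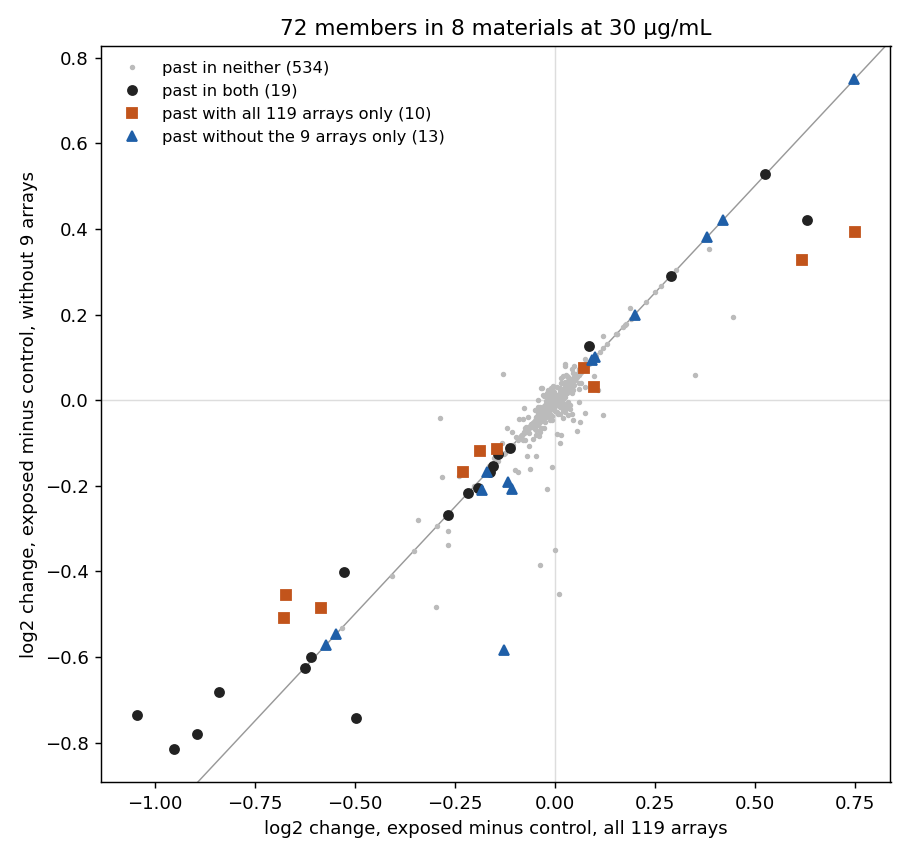
Log2 change at 30 µg/mL (exposed minus control) of the 72 members in 8 materials with all 119 arrays (horizontal) and without the 9 arrays that stood apart (vertical), the line marking equality. Of 576 pairs of member and material, 19 passed both times, 10 with all arrays only and 13 without the 9 only, and no call changed sign.

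Groups that did not overlap the controls at 30 µg/mL were counted too: 4 members in M (3.7% of all genes), 2 in B (1.49%), 1 in D (0.344%) and 0 in A (2.21%), C (0.284%), H (0.783%), I (2.17%) and L (0.853%).

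Between 30 and 0.3 µg/mL, members passed in 2 of the 8 materials, with 1 rise and 11 falls in all (1.3% and 0.657% of comparisons over all genes). In H, 1 member was higher and 7 were lower at 30 than at 0.3 µg/mL (4.88% of all genes were higher, 3.11% lower and 7.99% either). In M 4 were lower (7.61% of all genes passed in either direction). In the other 6 materials 0 members passed by limma (2 to 8 in each were below an unadjusted p of 0.05), and over all genes 0.0249% in A, 0% in B and D, 0.00499% in C and I and 0.015% in L. These comparisons do not use the controls. H2AC6 in H had 9.20, 9.39, 8.95 and 9.41 at 0.3 µg/mL, 8.56, 7.47, 7.64, 8.33 and 8.48 at 3 µg/mL and 7.68, 7.43, 8.65, 7.75 and 7.52 at 30 µg/mL. The lowest and highest doses did not overlap. It was lower by 1.43 ± 0.24 at 30 than at 0.3 µg/mL (adjusted p = 3.995e-05), and by 1.26 without the 9 arrays (adjusted p = 0.00133). H4C8 in H had 7.22, 7.28, 7.19 and 7.25 at 0.3 µg/mL, 6.97, 6.72, 6.76, 6.87 and 6.87 at 3 µg/mL and 6.65, 6.71, 6.95, 6.83 and 6.72 at 30 µg/mL. The gap between 30 and 0.3 µg/mL was -0.46 ± 0.07 (adjusted p = 2.062e-05), and -0.40 without the 9 arrays (adjusted p = 0.000695). H2BC8, H3C10 and H4C15 were also lower in H at 30 than at 0.3 µg/mL, by 0.40, 0.37 and 0.35, and remained so without the 9 arrays. In H at 0.3 µg/mL every H4C8 value was above the highest control (7.12), and every H2AC6 value above the control median (8.48). Against control without the 9 arrays, H3C10 and H4C15 passed as higher in H at 0.3 µg/mL (0.195% of all genes passed). No member passed in H at 30 µg/mL in that fit (3.94%). The gaps are thus not only falls from the control level. In M the 4 falls (H2AC6, H2AC19, H2BC5 and H4C13) all missed the threshold without the 9 arrays, with adjusted p from 0.106 to 0.433.

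In L the doses were closer together. H2AC6 in L averaged 7.10 ± 0.06 at 0.3 µg/mL (SD, n = 4), 7.49 ± 0.44 at 3 µg/mL (n = 5) and 7.59 ± 0.37 at 30 µg/mL (n = 5), and no member passed between 30 and 0.3 µg/mL. At 0.3 µg/mL, 13 members passed against control in L, 1 up and 12 down (8.47% of all genes up, 3.73% down and 12.2% either), of which 11 passed without the 9 arrays.

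**Figure D4:**
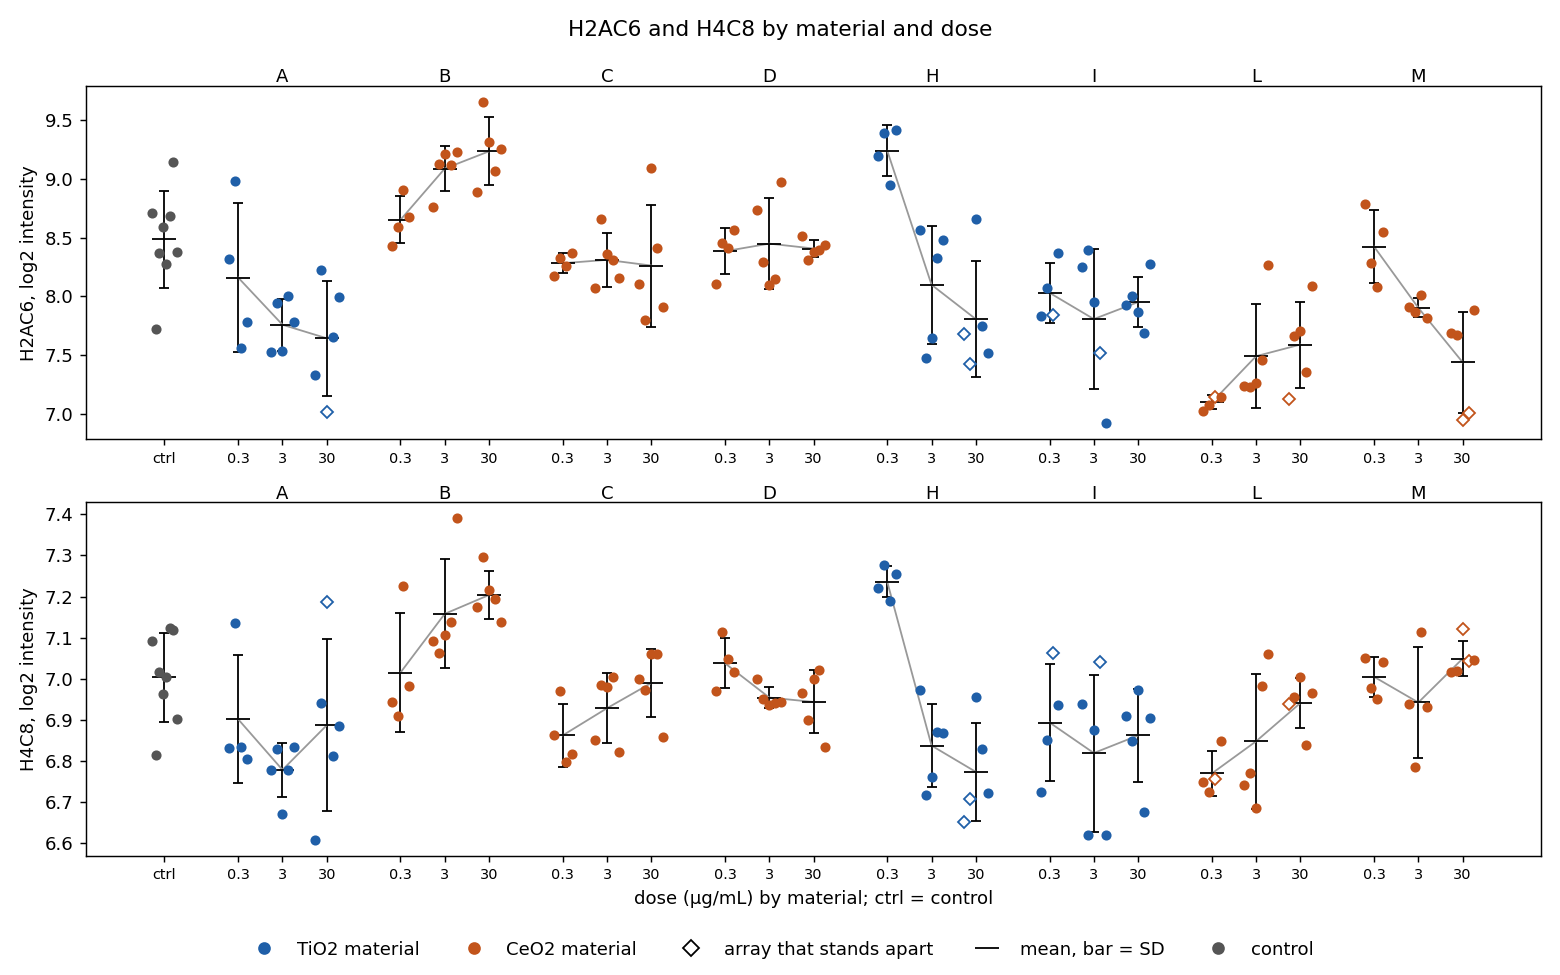
Log2 intensity of H2AC6 (top) and H4C8 (bottom) on every array, controls at the left and then 0.3, 3 and 30 µg/mL within each material, with means joined by a grey line, SD bars and open diamonds for the arrays that stood apart. Both genes are highest at 0.3 µg/mL and lower at 3 and 30 µg/mL in H, whereas in L both are lowest at 0.3 µg/mL.

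The materials differed from each other at 30 µg/mL in 20 of the 72 members by an F test that leaves the controls out. This is a smaller share than the 37.6% of all genes, and 17 of the 20 were above the array median. The smallest adjusted p-values were those of H2AC6 (1.018e-09), H2BC8 (3.92e-09) and H4C3 (3.965e-07). For H2BC8 the difference of B over M was 0.48 ± 0.06 (adjusted p = 1.267e-08), and for H4C3 that of M over B was 1.15 ± 0.15 (adjusted p = 4.421e-09). These differences were, without the 9 arrays, 0.41 (adjusted p = 2.076e-05) and 1.15 (adjusted p = 8.031e-07). Both genes were picked for this test because they had passed in opposite directions against control on the same arrays. The p-values of these differences are therefore not separate evidence, and the share of all genes that differ between B and M was not counted. B and M share the labelled vendor and oxide. The oxide itself, taken over the means of 5 CeO2 and 3 TiO2 materials, separated 0 members (0% of all genes) by limma, with 4 members and 1372 genes below an unadjusted p of 0.05. The smallest p-values were those of H4C15, 0.16 ± 0.04 higher in CeO2 than in TiO2 (adjusted p = 0.651), H4C8, 0.18 ± 0.06 higher (adjusted p = 0.698), and H2BC15, changed by -0.08 ± 0.03 (adjusted p = 0.711).

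Head-to-head neighbours did not always move as pairs. Of 12 pairs with starts 193 to 247 bases apart, 1 had both partners pass in some comparison, 4 had 1 partner pass and 7 had neither. Both partners passed in H2BC4 and H2AC6: in M at 30 µg/mL H2BC4 fell by 0.14 (adjusted p = 0.0230) beside the fall of 1.04 in H2AC6, and in L at 0.3 µg/mL by 0.15 (adjusted p = 0.0347) beside 1.38. The H2BC4 fall in M was lost without the 9 arrays (adjusted p = 0.190), the one in L was kept (adjusted p = 0.0272). H2BC21 fell by 0.61 in M while H2AC20, across 235 bases, changed by -0.02. H2BC8 rose by 0.29 in B while H2AC8, across 232 bases, changed by 0.00. H2BC21 and H2AC20 averaged 8.91 and 8.44 in the controls, whereas H2BC8 and H2AC8 averaged 6.86 and 6.74, near the array median of 6.62. In the 7 pairs with neither partner past the threshold, every gene averaged at most 6.86 in the controls. A change in such dim partners may not show. H2BC7 is counted in 2 pairs, with H2AC7 and H3C4.

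In 3 of 4 lists of related genes rises outnumbered falls at 30 µg/mL, as they did over all genes. Of 22 genes for transcription and 3′ processing of histone messages, there were 16 rises and 7 falls over the 8 materials. SYMPK, a scaffold of the cleavage complex, rose in 4 (0.47 to 0.60), and UPF1, a helicase used in histone message decay, rose in 4 (0.46 to 0.66). Of 26 chaperone and import genes there were 22 rises and 5 falls, with SUPT16H, a subunit of FACT, higher in 5 materials (0.37 to 0.71) and IPO4, an importer of H3 and H4, in 4 (0.49 to 0.52). Of 31 S phase genes there were 22 rises, 13 of them in M, and 3 falls, with POLD1, the catalytic subunit of DNA polymerase delta, higher in 4 materials (0.26 to 0.44). Of 13 histone variants and other histone genes outside the rule there were 3 rises and 5 falls, and H3-5 fell in 3 materials (-0.57 in H, -0.64 in I and -0.59 in L). Whether the H3-5 probe also binds another histone message was not checked. The share of rises was 9.09%, 10.6%, 8.87% and 2.88% in these 4 lists, in the order given, and 3.88% over all genes. The share of falls was 3.98%, 2.4%, 1.21% and 4.81%, against 2% over all genes. The 4 lists had, without the 9 arrays, 11 rises and 3 falls, 18 and 2, 13 and 2, and 5 and 3, and 5 S phase genes rose in M. In that setting SYMPK rose in 4 materials, SUPT16H and IPO4 in 3 each, POLD1 in 2 and UPF1 in 1, and H3-5 fell in I and L but not in H (-0.12, adjusted p = 0.729). The lists were not tested as sets.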

How the data were processed

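The authors deposited probe intensity on a linear scale, and the series text names beadarray 2.4.1 and R 2.14.0 for the upstream steps. No source used here states the background correction or the normalization. All arrays share 1 median intensity, 98.4, and nearly the same sorted values, with 2 ranks beyond a tolerance of 0.01. Changes of dim genes may be understated. The series text calls the flasks biological replicates, and their number limits the precision. In 1 array of M the title and the characteristic give different doses, so it entered no comparison.

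The log2 of the deposited values was fitted in R 4.3.3 by limma 3.58.1, with 25 groups, 119 arrays and no covariates, with p-values adjusted by Benjamini-Hochberg over all 20046 genes within each comparison (threshold 0.05). All adjusted p-values in the text come from limma. Errors of changes are standard errors. Of 48107 probes, 30113 had 1 gene symbol, 8 several and 17986 none. The oxides were compared with limma on material means. The fit was tested on simulated data. Coordinates, promoters and gene names are RefSeq GRCh38.p14, and 67 of 72 members had a promoter entry. Alternatives were the probe summary, a filter on dim genes, quantile normalization, an added 50 before log2, the replicate number or deposit order as a block, fits of only the compared groups, leaving out each replicate and, chosen after seeing the data, leaving out the 9 arrays.

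The members and lists were chosen with earlier results of these data known. Named were the 12 members with the most passes, the 6 brightest in the controls, the most called and brightest of each type, H1-10, and the 3 with the smallest p in the F test and in the oxide comparison; from each list, at most 4 that passed in 2 or more materials. 1 item of the rule is not reported here. Other members are named beside a small count or as neighbours, and were chosen after their values were seen.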

Additional observations from a re-analysis of the deposited data

Results flagged for a closer look

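Some single arrays lay far from the rest of their group. In H at 30 µg/mL, replicate 3 was the high one for H2AC6 (8.65) and for H2BC21 (9.46), on an array that did not stand apart on the first principal component. In I at 30 µg/mL, replicate 4 was the low one for H2BC21 (8.73) and H2BC5 (7.73). Control replicate 7 was the high one for H2BC8 (7.13) and H2AC19 (9.02), an array used in all 24 comparisons. Replicate 5 of L at 30 µg/mL was high for H4C15 (7.01). Replicate 3 of M at 30 µg/mL was high for H4C8 (7.12), and this was the only one of the 8 on an array that stood apart. Gaps of this size mark about 1 group in 20 by chance, and 108 groups were looked at.

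At 30 µg/mL with all arrays, the genes that passed in opposite directions were H2BC8 and H4C3, each in B and M, both labelled CeO2 from Nano Amor. H2BC8 also fell in L at 0.3 and 3 µg/mL. Without the 9 arrays the H2BC8 fall in M was lost. In that setting H2AC6 passed as higher in B and lower in A, L and M. H4C8 passed there as higher in B and lower in A, and H1-2 as higher in I and lower in M. The difference of B over M at 30 µg/mL was 0.48 for H2BC8, and that of M over B was 1.15 for H4C3. These differences were 0.41 and 1.15 without the 9 arrays. Their limma tests were run on genes picked for their opposite calls, so they add no separate support.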

How the results depend on the processing

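The number of members past the threshold moved by over 1.5 times in these cases, and in each the cause was not tested. Except where a percentage is given, counts in this section stand without the share of all genes in that setting. A shift in them is therefore not shown to be particular to the members. With genes below the median level left out, H had 5 in place of 3. With deposit-order blocks of 12 arrays, H had 1. With only the compared groups in the fit, A, B, H and L had 0 and M had 4; such a fit has fewer arrays to estimate the spread. Without the 9 arrays, B had 5 (4.27% of all genes), H 0 (3.94%) and I 9 (10.2%), and the 3 µg/mL comparisons had 34. No direction reversed. Leaving out 1 replicate at a time gave 1 to 5 members in A (lowest without replicate 3), 1 to 3 in B (lowest without replicate 5), 0 in C and D, 0 to 6 in H (lowest without replicate 1, highest without control replicate 2), 0 to 4 in I (lowest without control replicate 6), 2 to 5 in L (lowest without replicate 1), 7 to 14 in M (lowest without replicate 3), 11 to 21 at 3 µg/mL (lowest without the arrays numbered replicate 3), 11 to 16 at 0.3 µg/mL, 6 to 15 between 30 and 0.3 µg/mL (lowest without those numbered replicate 4), 17 to 22 in the F test and 0 for the oxides. Of 24 named gene changes at 30 µg/mL, 24 kept their call under the dim-gene filter, quantile normalization and 50 added. The sorted values of the arrays differed beyond 0.01 at only 2 ranks. Quantile normalization could therefore change little and is no separate check. With probes averaged 23 kept their call, but among these genes only H2BC12 and H2BC5 have several probes. The call was kept by 19 with deposit blocks, 17 without the 9 arrays and 5 with only the compared groups. The low signal of 39 members, over a background correction that is not known, limits what they can show.

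Replicate numbers do not pair the arrays: over 1320 pairs with the same number the correlation of deviations ran from -0.82 to 0.88 (median 0.013), 451 were over 0.1, and 16 of 119 arrays correlated best with their own number. With the replicate number as a block, B had 1 member, L 2 and M 8, the 3 µg/mL comparisons had 8, and 16 of the 24 named changes kept their call.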
